A study of Homo sapiens with 6 samples.

Results

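The cytosolic heat shock chaperones were followed in CAL62 cells, an established anaplastic thyroid carcinoma line, after treatment with erianin. The set holds 10 genes chosen by symbol, HSPA1A, HSPA1B, HSPA8, HSPH1, DNAJB1, HSPB1, BAG3, HSP90AA1, HSP90AB1 and HSPD1, each found through its Ensembl identifier among 39168 identifiers in the table. All 10 passed the filter on low counts that left 12821 genes for testing. HSPD1 encodes the chaperonin of the mitochondrial matrix, so by its known location it stands outside the cytosolic label. RNA from wild-type CAL62 cells was sequenced after 48 h with 50 nM erianin or with an equal concentration of its solvent DMSO, with 3 libraries in each group. The replicates are numbered but nothing says that they came from separate cultures, so the p-values measure only the spread between these libraries, which may be technical. In RNA from whole cultures a change in every cell and a change in the share of cells that express a gene cannot be told apart.

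Heat shock chaperones bind proteins that have lost or not yet reached their fold and keep them from aggregating. HSP70 proteins (HSPA1A, HSPA1B, HSPA8) do so in cycles of ATP hydrolysis, which J-domain partners such as DNAJB1 start and nucleotide exchange factors such as HSPH1 and BAG3 close, while HSP90 proteins act on kinases, receptors and other clients that HSP70 hands over. Under proteotoxic stress the transcription factor HSF1 binds heat shock elements, inverted repeats of nGAAn, and induces the stress forms HSPA1A and HSPA1B strongly, whereas HSPA8 and HSP90AB1 are the constitutive forms.

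The label of the cells was compared with marker genes in normalized counts (CPM, scaled by library size and TMM factor). Of the thyroid follicular markers reported here, PAX8 lay between 419 and 739 CPM, FOXE1 between 1.07 and 2.28, TG and SLC5A5 were at or below 0.381, and TSHR and NKX2-1 were at 0 in all 6 libraries. The keratins KRT8 and KRT18 and the mesenchymal genes VIM and FN1 were abundant, at 738 CPM or more, EPCAM lay between 17.7 and 23.3 and CDH2 between 46.1 and 63.9, and CDH1 and the immune and endothelial markers PTPRC, CD68, PECAM1 and VWF stayed at or below 0.486. Reads counted on named genes ranged from 25776301 to 34107727 per library. DMSO replicate 3 stood apart from the other DMSO libraries: its Euclidean distance to them on log2 CPM was 64.1 and 62.9, against 37.2 between DMSO replicates 1 and 2 and less among the erianin libraries, the closest pair of which was 28.2 apart. DMSO replicates 1 and 2 lay 58.5 to 62.3 from the erianin libraries, nearer than they lay to DMSO replicate 3. From the erianin libraries DMSO replicate 3 was 68.3 to 69.3 away. Its counts also fell with the GC content of the transcript, by 0.17 on the log2 scale per 10 percentage points of GC relative to the mean of all libraries, where DMSO replicates 1 and 2 rose by 0.13 and 0.15 and the erianin libraries fell by between 0.028 and 0.043. For this reason the result of each member is given with and without DMSO replicate 3, and the part that GC content played in any result was not tested beyond the values given.

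Promoter sequences are shown because the members share an inducer, and because HSPA1A and HSPA1B differ so little that reads cannot always be assigned to 1 of them. They come from RefSeq on GRCh38.p14, run 5′ to 3′ on the strand of the gene, and end before the first base that GENCODE release 29 places in an exon. Capitals mark the heat shock element letters GAANNTTC or TTCNNGAA. Each of these letter strings is its own reverse complement, so a search covers both strands, and matches of the 2 strings may overlap. The stretches are chr6:31815294-31815463 (plus strand) for HSPA1A and chr6:31827565-31827734 (plus strand) for HSPA1B, the stress-induced HSP70 pair, chr13:31162389-31162558 (minus strand) for HSPH1, chr19:14518421-14518590 (minus strand) for DNAJB1 and chr6:44247696-44247865 (plus strand) for HSP90AB1. The last 2 lie between exons of longer transcripts of those genes.
HSPA1A: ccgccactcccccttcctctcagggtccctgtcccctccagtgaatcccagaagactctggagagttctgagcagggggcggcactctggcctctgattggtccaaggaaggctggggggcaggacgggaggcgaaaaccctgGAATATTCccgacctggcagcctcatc
HSPA1B: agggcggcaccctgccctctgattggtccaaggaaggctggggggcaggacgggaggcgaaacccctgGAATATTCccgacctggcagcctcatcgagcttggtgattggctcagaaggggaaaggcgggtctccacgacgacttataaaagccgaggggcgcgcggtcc
HSPH1: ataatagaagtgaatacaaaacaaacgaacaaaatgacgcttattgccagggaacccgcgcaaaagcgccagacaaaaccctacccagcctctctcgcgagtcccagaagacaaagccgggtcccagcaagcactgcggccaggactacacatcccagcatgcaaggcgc
DNAJB1: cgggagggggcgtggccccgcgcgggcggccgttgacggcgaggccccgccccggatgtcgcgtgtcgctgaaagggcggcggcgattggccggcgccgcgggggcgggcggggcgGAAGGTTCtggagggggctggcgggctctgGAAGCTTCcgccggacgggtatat
HSP90AB1: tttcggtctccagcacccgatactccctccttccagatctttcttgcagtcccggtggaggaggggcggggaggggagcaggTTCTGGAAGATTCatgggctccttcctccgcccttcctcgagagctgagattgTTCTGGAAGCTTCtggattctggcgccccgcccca

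The 250 bases before the start were identical between HSPA1A and HSPA1B at 235 of 251 aligned columns, or 93.6%, and each held 1 match, which began at base -106 in HSPA1A and -105 in HSPA1B, counted back from the start. DNAJB1 held matches from -77 and -47, and HSP90AB1 had overlapping pairs from -165 and -160 and from -112 and -107. HSPA8 held 4 matches, from -230, -225, -55 and -50, HSP90AA1 held 3, from -88, -83 and -68 before the start nearer to its coding exons, HSPB1 held 1 from -182, and HSPD1 held 3 from -245, -240 and -235. The letters of HSPA8, HSP90AA1 and HSPD1 are not printed, because their matches lie in annotated exons of longer transcripts or of a neighbouring gene. For the 4 genes with several annotated starts the window with most matches is given, a choice made after the letters were seen. No match was found for HSPH1 or BAG3 in the 300-base window searched, from 250 bases before the start to 50 bases after it. In all, 8 of the 10 members had a match in at least 1 window, against 16.2% of 27305 genes, while 13.5% of 35116 windows held either string, 6.77% GAANNTTC and 7.74% TTCNNGAA. A match describes these letters only and shows no binding.

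Of the 10 members, 2 rose with erianin, HSPA1A and HSPA1B, and none fell by edgeR, where 0 were lower at an unadjusted p under 0.05. DESeq2 called 3 members higher, with HSPH1 added, and 0 lower, where 5.75% of 14552 genes were called higher and 3.62% lower. A gene counted as risen or fallen at a Benjamini-Hochberg adjusted p under 0.05 in edgeR's quasi-likelihood test and an absolute log2 fold change over 0.5, which called 5.37% of the 12821 genes higher, 3.36% lower and 8.73% in either direction. At the p threshold alone the same 2 members passed, against 7.22% of all genes higher, 7.69% lower and 14.9% in either direction. The log2 fold change was positive in 9 of 10 members, against 50.3% of all genes, and its median was 0.23 against 0.00 for all genes. In 5 of the 10 every erianin library lay above every DMSO library, as it did in 19.5% of all genes. Without DMSO replicate 3, edgeR called 4 members higher, adding HSPH1 and HSP90AA1, where 11.4% of 13053 genes were called higher, 6.11% lower and 17.5% in either direction. In that fit 9 members, all but HSPA8, were higher at an adjusted p under 0.05, but so were 27.5% of all genes, with 27.7% lower and 55.2% in either direction.

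HSPA1A (ENSG00000204389, chromosome 6 from 31815464 to 31817946, plus strand, GENCODE release 29 on GRCh38) and HSPA1B (ENSG00000204388, chromosome 6 from 31827735 to 31830255, plus strand) encode the same stress-inducible HSP70 protein. HSPA1A stood at 147, 139 and 127 CPM in DMSO replicates 1, 2 and 3 and at 210, 210 and 214 CPM in erianin replicates 1, 2 and 3. All 3 erianin libraries lay above all DMSO libraries, with the highest DMSO value in replicate 1. The mean of HSPA1A thus went from 138 ± 9.92 up to 211 ± 2.65 CPM (SD over 3 libraries), or 1.54-fold at a log2 fold change of 0.62 (edgeR adjusted p = 0.00404, with 0.07 as its standard error, SE).

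HSPA1B was at 111, 102 and 85.5 CPM in the DMSO libraries and at 169, 172 and 175 CPM with erianin. Again the groups did not overlap, and DMSO replicate 3 was the lowest library. The means were 99.4 ± 12.8 and 172 ± 3.09 CPM (SD over 3 libraries), log2 fold change 0.79 (SE 0.10, edgeR adjusted p = 0.00475) or 1.73-fold. Without DMSO replicate 3 the log2 fold changes were 0.56 for HSPA1A and 0.69 for HSPA1B, with edgeR adjusted p-values of 1.26e-12 and 3.75e-14.

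The HSPA1A and HSPA1B transcripts are near-identical copies: of the 100-base windows of the longest coding transcript, 69.9% in HSPA1A occurred unchanged in HSPA1B, and 68.8% in the reverse direction. HSPA1B also overlaps the noncoding AL671762.1 on the same strand, which was not analysed here, and 72.7% of its windows occurred in either of the 2 genes. How the counting treated reads that fit both genes is not given in the sources used here, so the split between them is uncertain. Their sum does not depend on that split, unless reads that fit both were dropped. It was 258, 241 and 213 CPM in DMSO and 378, 382 and 389 CPM with erianin, and with the pair counted as 1 gene edgeR gave a log2 fold change of 0.69 (SE 0.08, adjusted p = 0.00412).

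HSPA8 (ENSG00000109971, chromosome 11 from 123057489 to 123063230, minus strand), the constitutive HSP70 that also uncoats clathrin vesicles, was not called. It was at 2420, 2387 and 3040 CPM in DMSO and at 2567, 2519 and 2453 CPM with erianin. The erianin libraries lay above DMSO replicates 1 and 2 and below DMSO replicate 3, so the groups overlapped. It had a log2 fold change of -0.058 (SE 0.11, edgeR adjusted p = 0.764), and its sign turned to 0.060 without DMSO replicate 3 (SE 0.04, adjusted p = 0.195). On TPM values it was 0.15, relative to a shift of all genes by 0.18 on that scale.

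**Figure D1:**
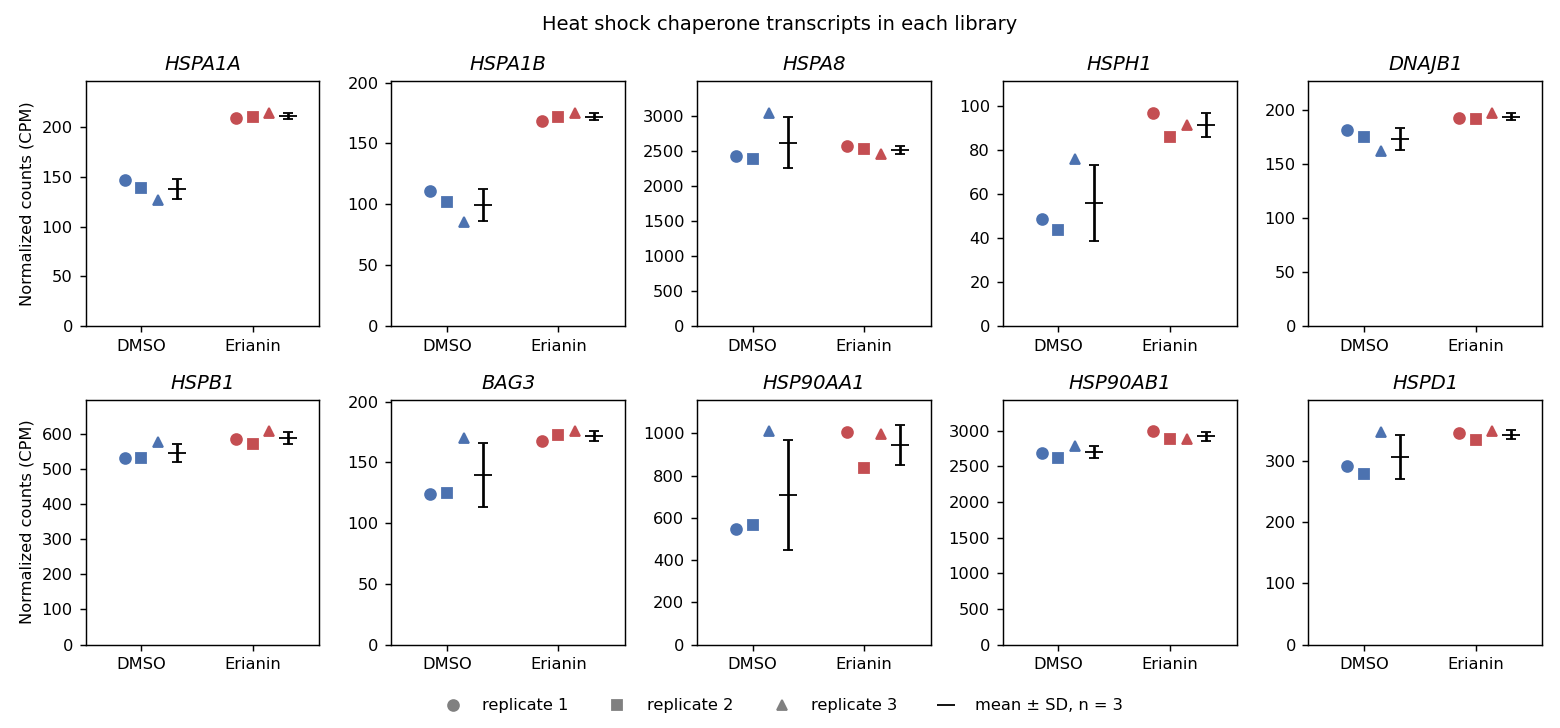
Normalized counts in CPM (vertical axes, each from 0) of the 10 chaperone genes in 3 DMSO libraries (blue) and 3 erianin libraries (red), with the mark shape giving the replicate number and black bars the mean ± SD. HSPA1A and HSPA1B separate the groups without overlap, at 127 to 147 against 210 to 214 CPM and 85.5 to 111 against 169 to 175 CPM. DMSO replicate 3 lies above DMSO replicates 1 and 2 for HSPA8, HSPH1, HSPB1, BAG3, HSP90AA1, HSP90AB1 and HSPD1.

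Among the partners of HSP70, HSPH1 (ENSG00000120694, chromosome 13 from 31134974 to 31162388, minus strand) encodes HSP110, a nucleotide exchange factor that also holds unfolded chains. HSPH1 was at 48.4, 43.6 and 75.7 CPM in DMSO and at 96.8, 85.7 and 91.5 CPM with erianin. Every erianin library was above every DMSO library, but DMSO replicate 3 lay nearer to the erianin libraries than to the other DMSO libraries. It changed by 0.71 on the log2 scale (SE 0.20), or 1.63-fold, and the edgeR adjusted p of 0.0514 missed the threshold. Without DMSO replicate 3 the log2 fold change was 0.99 (SE 0.06, edgeR adjusted p = 2.97e-15). HSPH1 had the lowest GC content of the members, 40.0% in its longest transcript.

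DNAJB1 (ENSG00000132002, chromosome 19 from 14514770 to 14529770, minus strand) encodes the J-domain protein that delivers clients to HSP70 and stimulates its ATPase. DNAJB1 was at 181, 175 and 162 CPM in DMSO and at 192, 191 and 197 CPM with erianin. The groups did not overlap but lay close together, and the log2 fold change of 0.16 (SE 0.07) had an edgeR adjusted p of 0.162. Without DMSO replicate 3 it was 0.11 (SE 0.04, edgeR adjusted p = 0.0220). The DNAJB1 gene overlaps TECR on the opposite strand. Without a stated use of strand, how reads from parts that both genes cover were assigned is uncertain.

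BAG3 (ENSG00000151929, chromosome 10 from 119651370 to 119677819, plus strand) encodes a nucleotide exchange factor that joins HSP70 to small heat shock proteins and to autophagy. BAG3 was at 124, 125 and 170 CPM in DMSO and at 168, 172 and 175 CPM with erianin. DMSO replicate 3 fell among the erianin libraries, and the other DMSO libraries lay below them. With all libraries the log2 fold change was 0.30 (SE 0.13, edgeR adjusted p = 0.160), and without DMSO replicate 3 it was 0.46 (SE 0.04, adjusted p = 1.10e-10), short of the fold threshold.

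HSPB1 (ENSG00000106211, chromosome 7 from 76302544 to 76304295, plus strand) encodes HSP27, a small heat shock protein that binds unfolding proteins without ATP. HSPB1 was at 532, 531 and 576 CPM in DMSO and at 584, 571 and 607 CPM with erianin. The groups overlapped, since DMSO replicate 3 exceeded erianin replicate 2. HSPB1 had log2 fold changes of 0.10 (SE 0.07, edgeR adjusted p = 0.355) with all libraries and 0.14 (SE 0.04, adjusted p = 0.00366) without DMSO replicate 3.

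Of the cytosolic HSP90 genes, HSP90AA1 (ENSG00000080824, chromosome 14 from 102080738 to 102139699, minus strand) is the stress-inducible form. It was at 547, 566 and 1008 CPM in DMSO and at 1004, 834 and 995 CPM with erianin. DMSO replicate 3 was the highest of all 6 libraries, while DMSO replicates 1 and 2 lay below every erianin library. The log2 fold change was 0.42 (SE 0.23, edgeR adjusted p = 0.269) with all libraries, and 0.76 (SE 0.05, adjusted p = 9.34e-14) or 1.69-fold without DMSO replicate 3. Its call thus rested on whether that library was used. HSP90AA1 overlaps the start of WDR20 on the opposite strand.

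HSP90AB1 (ENSG00000096384, chromosome 6 from 44246166 to 44253888, plus strand), the constitutive form, was at 2689, 2621 and 2791 CPM in DMSO and at 2989, 2889 and 2886 CPM with erianin. The erianin libraries were higher without overlap, by a small margin. HSP90AB1 had a log2 fold change of 0.11 (SE 0.07, edgeR adjusted p = 0.307), and 0.13 without DMSO replicate 3 (SE 0.04, adjusted p = 0.00415).

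HSPD1 (ENSG00000144381, chromosome 2 from 197486581 to 197516737, minus strand), the mitochondrial HSP60 subunit, was at 291, 279 and 347 CPM in DMSO and at 346, 335 and 348 CPM with erianin. Here too DMSO replicate 3 lay among the erianin libraries. The log2 fold change was 0.17 (SE 0.09, edgeR adjusted p = 0.277) with all libraries and 0.26 (SE 0.04, adjusted p = 2.00e-06) without DMSO replicate 3. HSPD1 overlaps HSPE1 on the opposite strand, the gene of its cochaperonin HSP10.

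**Figure D2:**
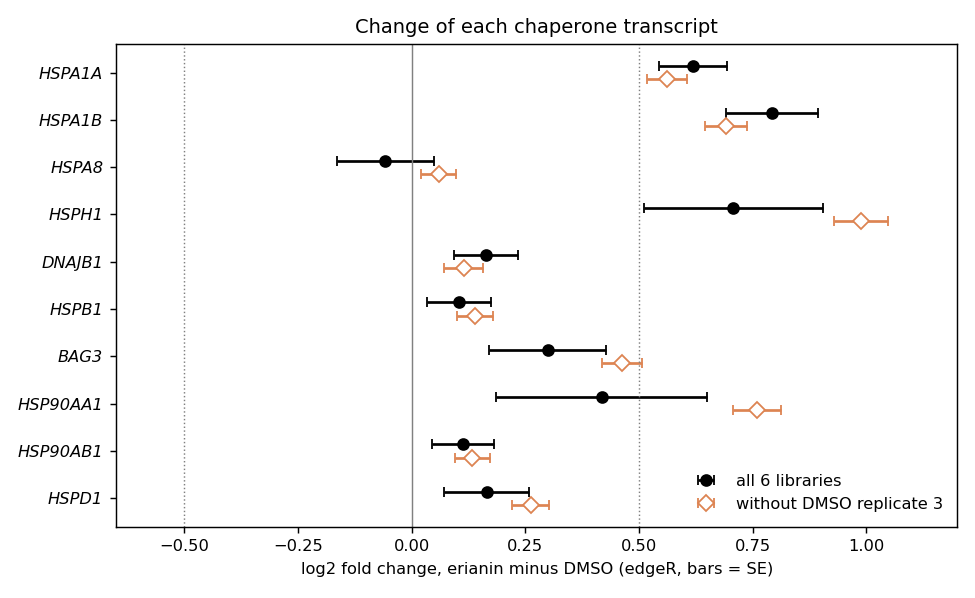
Log2 fold change of each chaperone gene between erianin and DMSO from edgeR (horizontal axis) with bars of 1 SE, for all 6 libraries (filled circles) and without DMSO replicate 3 (open diamonds). Dotted lines mark the fold threshold of 0.5. HSPA1A and HSPA1B lie past it in both fits, at 0.62 and 0.79 and at 0.56 and 0.69, and HSP90AA1 moves from 0.42 to 0.76.

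The members thus differed in where DMSO replicate 3 stood. Relative to the mean of DMSO replicates 1 and 2, on the log2 scale, it was 0.17 lower for HSPA1A, 0.32 lower for HSPA1B and 0.14 lower for DNAJB1, whose longest transcripts have a GC content of 59.7%, 58.7% and 53.0%. It was higher by 0.86 for HSP90AA1, 0.72 for HSPH1, 0.45 for BAG3, 0.34 for HSPA8 and 0.28 for HSPD1, whose GC contents are 45.2%, 40.0%, 56.9%, 47.0% and 44.2%. HSPB1, with the highest GC content of 64.3%, was 0.12 higher and HSP90AB1, at 48.1%, 0.07 higher. With an offset for the GC trend of each library the log2 fold change was 0.61 for HSPA1A, 0.79 for HSPA1B and 0.57 for HSPH1, with edgeR adjusted p-values of 0.00158, 0.000541 and 0.0143. The other members did not pass in that fit, with HSP90AA1 at 0.34, BAG3 at 0.26, DNAJB1 at 0.14, HSPB1 at 0.080, HSPD1 at 0.065, HSP90AB1 at 0.054 and HSPA8 at -0.13. Of 12686 genes, 5.18% were called higher and 5.28% lower with the offset, and 22.1% had an adjusted p under 0.05. The offset also moved the median log2 fold change of all genes to -0.074, from 0.00 without it.

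Together the members took 0.670%, 0.663% and 0.847% of the counts in DMSO replicates 1, 2 and 3 and 0.856%, 0.826% and 0.842% in the erianin libraries. HSPA8 and HSP90AB1 supplied 69.6% to 72.1% of these counts in DMSO and 65.6% to 67.8% with erianin. Levels between genes were compared per length, as CPM per kilobase of the longest coding transcript. In DMSO the order was HSPA8 at 1062 ± 149 CPM per kilobase, HSP90AB1 at 1010 ± 32.0, HSPB1 at 601 ± 28.2, HSP90AA1 at 201 ± 74.5, HSPD1 at 124 ± 14.7, DNAJB1 at 76.3 ± 4.43, HSPA1A at 55.4 ± 3.99, BAG3 at 54.3 ± 10.3, HSPA1B at 39.4 ± 5.09 and HSPH1 at 10.8 ± 3.33 CPM per kilobase (SD, n = 3). Neighbours in that order whose libraries overlapped were HSPA8 and HSP90AB1, and HSPA1A and BAG3.

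With erianin the constitutive HSP90AB1 at 1093 ± 22.0 and HSPA8 at 1020 ± 23.2 CPM per kilobase again led (SD, n = 3), followed by HSPB1, HSP90AA1 and HSPD1 as in DMSO. DNAJB1 at 85.4 ± 1.36 and HSPA1A at 85.1 ± 1.07 CPM per kilobase overlapped, as did HSPA1B at 68.2 ± 1.23 and BAG3 at 66.8 ± 1.50, and HSPH1 at 17.6 ± 1.06 came last. The deposited TPM gave another order, because the lengths behind it differ: relative to HSPA1A, TPM used a length of 0.574 for HSPA1B, 6.65 for HSPA8 and 6.21 for HSPH1, where the longest coding transcripts stand at 1.02, 0.992 and 2.09. The source of the TPM lengths is not given in the sources used here, so TPM levels were not compared between genes.

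Ratios within a library do not depend on the scaling of that library and set the inducible form against the constitutive one. The level of a TPM ratio depends on the lengths behind the TPM, so only its shift between libraries is read. The TPM of HSPA1A and HSPA1B together, divided by that of HSPA8, was 0.933, 0.881 and 0.604 in DMSO and 1.30, 1.35 and 1.41 with erianin. This ratio was higher in every erianin library than in every DMSO library. By CPM per kilobase of transcript the pair stood far below HSPA8 throughout, at 0.105, 0.0994 and 0.0690 of it in DMSO and at 0.145, 0.149 and 0.156 with erianin. On TPM the log2 ratio was 0.77 higher with erianin, or 0.58 without DMSO replicate 3, and per kilobase it was 0.75 higher, or 0.56 without that library. The two-sided exact permutation test gave p = 0.1, the smallest that 3 against 3 libraries allow (0.14 after Benjamini-Hochberg adjustment over 7 ratios), so none of these ratios could pass 0.05.

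HSP90AA1 to HSP90AB1, the inducible to the constitutive HSP90, was 0.170, 0.180 and 0.302 in DMSO and 0.281, 0.241 and 0.288 with erianin. The groups overlapped, with the highest ratio in DMSO replicate 3. The log2 difference was 0.36 (two-sided exact permutation p = 0.4, adjusted 0.4), and 0.62 without that library.

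Further ratios set members against their counterparts in the endoplasmic reticulum (ER) and in mitochondria. HSPA5, the ER HSP70 also known as BiP, stood to HSPA8 as 3.02, 3.06 and 2.53 in DMSO and as 9.30, 10.1 and 10.1 with erianin, a log2 difference of 1.78 (two-sided exact permutation p = 0.1, adjusted 0.14), or 1.69 without DMSO replicate 3. HSPA5 was itself at 978, 979 and 1030 CPM in DMSO and at 3195, 3423 and 3313 CPM with erianin, log2 fold change 1.73 (SE 0.07, edgeR adjusted p = 0.000129). HSPA1B, the member with the largest log2 fold change over all 6 libraries (HSPH1 and HSP90AA1 exceeded it without DMSO replicate 3), was at 0.79, and the difference between the 2 genes was not tested.

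HSP90B1, the ER HSP90, to HSP90AB1 was 0.126, 0.127 and 0.183 in DMSO and 0.192, 0.191 and 0.200 with erianin, a log2 difference of 0.44 (two-sided exact permutation p = 0.1, adjusted 0.14). The groups did not overlap, and DMSO replicate 3 lay close to the erianin libraries; without it the difference was 0.62. TRAP1, the mitochondrial HSP90, to HSP90AB1 was 0.0941, 0.0952 and 0.0892 in DMSO and 0.0530, 0.0518 and 0.0530 with erianin, a log2 difference of -0.82 (two-sided exact permutation p = 0.1, adjusted 0.14). This ratio was lower in every erianin library, and without DMSO replicate 3 the difference was -0.85.

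For the remaining mitochondrial pairs, HSPA9 (the mitochondrial HSP70) to HSPA8 differed by 0.15 on the log2 scale (two-sided exact permutation p = 0.1, adjusted 0.14), from 0.450 to 0.503 in DMSO and from 0.523 to 0.557 with erianin, and by 0.10 without DMSO replicate 3. HSPE1 to HSPD1 was 0.0993, 0.0924 and 0.0165 in DMSO and 0.0961, 0.106 and 0.103 with erianin. Only DMSO replicate 3 lay apart, and the log2 difference of 0.93 (two-sided exact permutation p = 0.2, adjusted 0.233) was 0.09 without it. HSPE1 held 62 to 435 counts and overlaps HSPE1-MOB4 on the same strand, which held 0 counts in all 6 libraries. How reads that fit both were counted is not given, so the level of HSPE1 and this ratio are uncertain.

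**Figure D3:**
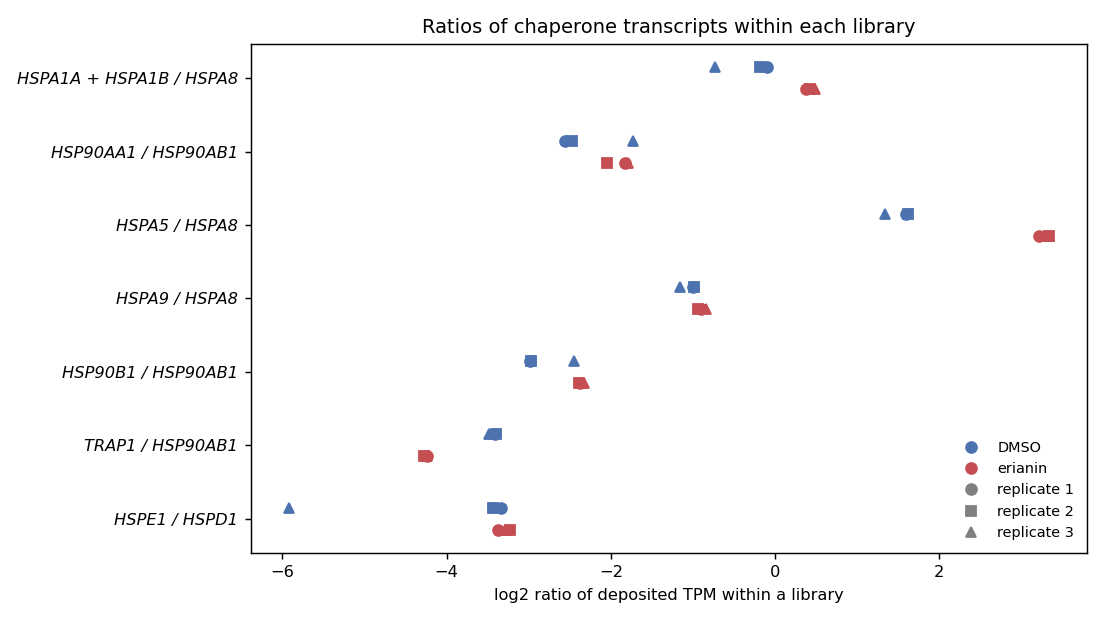
Log2 ratio of deposited TPM values within each library (horizontal axis, whose level depends on the gene lengths behind the TPM) for 7 pairs of chaperone genes, DMSO in blue and erianin in red, with the mark shape giving the replicate number. The ratio of the HSPA1A and HSPA1B sum to HSPA8 moves up by 0.77, HSPA5 to HSPA8 moves by 1.78, and HSPE1 to HSPD1 is low only in DMSO replicate 3.

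The other genes of the chaperone system were taken from a list of 74 genes in 8 roles, of which 70 passed the filter (HSPB2, HSPB3, HSPB6 and HSPB7 did not). Of these, edgeR called 5 higher, HSPB8, HSPA14, CDC37L1, DNAJB4 and VBP1, or 7.14%, and 1 lower, TRAP1. Over all genes tested 5.37% were called higher and 3.36% lower. The log2 fold change was positive in 51 of 70 and the median was 0.15. Without DMSO replicate 3 edgeR called 11 higher and 1 lower, where 11.4% and 6.11% of all genes were, and all 6 genes just named were among them.

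None of the heat shock factors HSF1, HSF2 and HSF4 or their regulator HSBP1 was called. HSF1, the factor that induces heat shock genes, was at 205, 200.2 and 190.4 CPM in DMSO and at 184, 179 and 179 CPM with erianin. Every erianin library was lower, with log2 fold change -0.13 (SE 0.06, edgeR adjusted p = 0.205). HSF2, a second factor of the family, had a log2 fold change of 0.29 (SE 0.12, edgeR adjusted p = 0.152), and HSBP1, which binds trimers of HSF1, one of 0.057 (edgeR adjusted p = 0.655). In the fit without DMSO replicate 3, HSF1 was at -0.17 (edgeR adjusted p = 0.000983) and HSF2 at 0.39 (adjusted p = 0.000562). HSBP1 was at 0.024 there (edgeR adjusted p = 0.694), and none passed the fold threshold. In that fit 27.5% of all genes were higher and 27.7% lower at an adjusted p under 0.05.

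Of 7 other HSP70 and HSP110 genes, all had a positive log2 fold change, with a median of 0.36, and HSPA14 alone was called. HSPA14, a ribosome-associated HSP70, was at 9.36, 8.53 and 9.69 CPM in DMSO and at 18.5, 16.4 and 17.8 CPM with erianin, log2 fold change 0.93 (SE 0.11, edgeR adjusted p = 0.00374). HSPA2 passed the p threshold at 0.40 (edgeR adjusted p = 0.0112) but not the fold threshold. HSPA4, an HSP110 relative of HSPH1 and the most abundant gene of this role, was at 0.24 (edgeR adjusted p = 0.260), and at 0.40 without DMSO replicate 3 (edgeR adjusted p = 6.14e-09). HSPA6, a strictly stress-induced HSP70, was scarce, at 1.31, 1.57 and 1.41 CPM in DMSO and at 1.76, 2.58 and 3.31 CPM with erianin (edgeR log2 fold change 0.83, adjusted p = 0.0760), and was called without DMSO replicate 3 (0.80, adjusted p = 0.0106). HSPA6, HSF2 and other genes named beyond the rule for the list were chosen after their values were seen. The list also holds HSPA13, which is found at ER-derived membranes and not in the cytosol.

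Of 11 J-domain genes, edgeR called DNAJB4, which was at 5.21, 4.34 and 6.29 CPM in DMSO and at 8.14, 8.81 and 8.65 CPM with erianin, log2 fold change 0.69 (SE 0.16, adjusted p = 0.0270). The more abundant DNAJA1 and DNAJB6 were not called, at 0.32 (edgeR adjusted p = 0.0944) and 0.17 (adjusted p = 0.234). Of 9 genes of nucleotide exchange and client handling none was called, and their median was -0.013. BAG6, which guards membrane proteins in the cytosol, was at -0.065 (edgeR adjusted p = 0.573), and STIP1, the adaptor that joins HSP70 to HSP90, at 0.19 (edgeR adjusted p = 0.204).

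Among 13 HSP90 cochaperones, CDC37L1, a relative of the kinase adaptor CDC37, went from 10.9, 10.3 and 9.02 CPM in DMSO to 20.3, 17.9 and 18.6 CPM with erianin, log2 fold change 0.91 (SE 0.12, edgeR adjusted p = 0.00477). CDC37 itself was at -0.087 (edgeR adjusted p = 0.544). PTGES3, the p23 cochaperone, was at 0.32 (edgeR adjusted p = 0.0284), under the fold threshold.

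Small heat shock proteins were scarce apart from HSPB1. HSPB8, the partner of BAG3, was at 1.48, 1.48 and 1.28 CPM in DMSO and at 4.21, 4.41 and 3.37 CPM with erianin, log2 fold change 1.50 (SE 0.18, edgeR adjusted p = 0.00410). HSPB11, which the list places in this role by its symbol only, was at 0.21 (edgeR adjusted p = 0.375). Of 14 genes of the cytosolic chaperonin and its delivery partner prefoldin, edgeR called VBP1, a prefoldin subunit, at 0.52 (SE 0.09, adjusted p = 0.0120), while the chaperonin subunits CCT7 and CCT3 were at 0.044 (adjusted p = 0.838) and 0.077 (adjusted p = 0.667). Without DMSO replicate 3 both signs turned, to -0.079 for CCT7 and -0.035 for CCT3.

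The 9 mitochondrial genes went in both directions, with 5 positive and 4 negative log2 fold changes. TRAP1 fell from 359, 355 and 354 CPM to 225, 213 and 218 CPM, log2 fold change -0.70 (SE 0.06, edgeR adjusted p = 0.00150). LONP1, a matrix protease, was at -0.39 (edgeR adjusted p = 0.0340) and HSPA9 at 0.10 (edgeR adjusted p = 0.414), neither past both thresholds. HSPE1 was at 10.1, 8.96 and 1.99 CPM in DMSO and at 11.6, 12.4 and 12.4 CPM with erianin. The size of its log2 fold change, 0.80 (SE 0.47, edgeR adjusted p = 0.298), rests on DMSO replicate 3. It was 0.35 without that library (SE 0.11, edgeR adjusted p = 0.00574), under the fold threshold. In that fit 27.5% of all genes were higher at an adjusted p under 0.05. The level of HSPE1 is uncertain because of its overlap with HSPE1-MOB4. Of 6 ER counterparts, 2 rose, HSPA5 and the J-domain gene DNAJB9 (log2 fold change 0.67, SE 0.11, edgeR adjusted p = 0.0104), and HSP90B1 was at 0.53 (edgeR adjusted p = 0.0703), or 0.75 without DMSO replicate 3 (edgeR adjusted p = 1.71e-16).

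**Figure D4:**
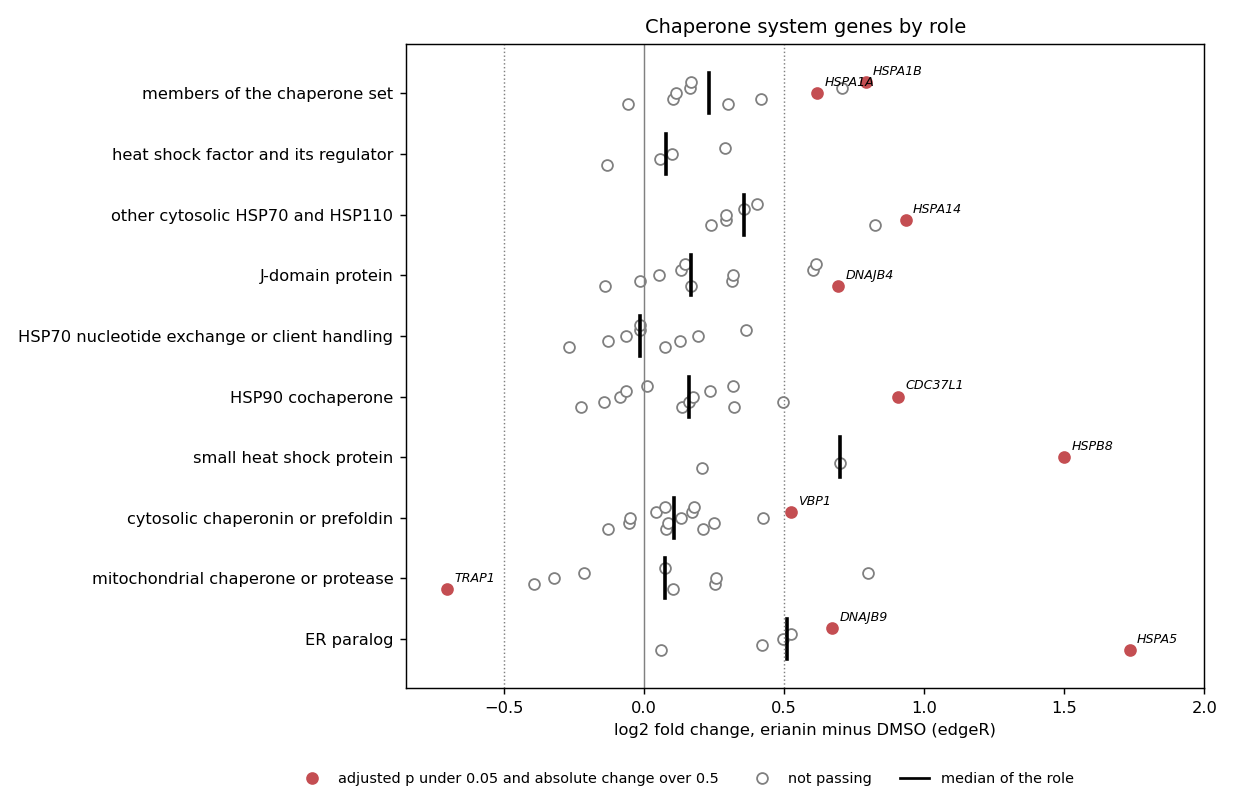
Log2 fold change between erianin and DMSO from edgeR (horizontal axis) for each tested chaperone gene, by role, with filled points past both thresholds, open points not past them and a black line at the median of each role. Dotted lines mark the fold threshold of 0.5. The members have a median of 0.23, HSPB8 at 1.50 and HSPA5 at 1.73 lie farthest to the right, and TRAP1 at -0.70 lies farthest to the left.

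Copies of the other members were looked for among the rows of the table. Of the 100-base windows of the longest coding transcript, 5.06% in HSPB1, 3.90% in HSPD1, 2.14% in HSP90AA1 and 1.59% in HSP90AB1 occurred unchanged in another gene, chiefly HSPB1P1, HSPD1P1, HSP90AA2P and HSP90AB3P, and none in HSPA8, HSPH1, DNAJB1 or BAG3. The 17 rows of HSPA8 pseudogenes held no counts. The 16 HSPD1 pseudogene rows summed to at most 3 counts in a library, and the 8 HSP90A pseudogene rows to at most 58, or 0.0474% of the counts of HSP90AA1 and HSP90AB1.

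HSPB1P1 and the remaining pseudogene rows of the members were at 0 in all 6 libraries. The genes whose log2 CPM followed HSPA1B most closely over the 6 libraries, among 8542 genes with a mean of at least 10 CPM, were RHOB (Pearson r = 0.999), GRB7 (0.999), ANGPTL4 (0.998), HSPA1A (0.997) and DDIT3 (0.996). These coefficients are descriptive: the 6 points are 2 groups of libraries, HSPA1A can share reads with HSPA1B, and 547 of the ranked genes had r over 0.9. Depth also differed between the libraries, with overlap between the groups.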

How the data were processed

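RNA of 6 CAL62 libraries was measured by RNA sequencing, 3 per group. Unnormalized gene counts and TPM values of the same libraries were deposited. The TPM columns sum to between 59.1% and 78.3% of their nominal total. The paper's methods name the BGISEQ-500 platform and DESeq2, and the labels a library preparation by Illumina protocols. The submitters' processing notes name fastp 0.23.2, STAR 2.7.10, featureCounts 2.0.1, StringTie 2.2.1 and the builds GRCh38 and hg38, without roles. The annotation, the use of strand and the treatment of reads with several matches are not given in the sources used here.

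Rows without a gene identifier (26480 of 65807, between 0.00385% and 0.00515% of counts) were left out. Of 39168 Ensembl identifiers 38259 matched a symbol, and of rows sharing an identifier the one with most counts stood for the symbol. The other rows of the 159 identifiers found on several rows stayed in the counts given to the fits, as rows of their own. Positions and GC content came from GENCODE release 29, promoters from RefSeq. Counts were tested with edgeR 4.0.16 (TMM, filterByExpr, glmQLFit, glmQLFTest) in R 4.3.3 over all genes that passed, with standard errors from the F statistic. On simulated counts of 12718 genes, edgeR recovered 87 of 99 genes changed by 1 on the log2 scale and 99 of 100 changed by 2, with 5 unchanged genes called. The simulation used a coefficient of variation of 0.1 and no library standing apart, where edgeR estimated 0.139 in the real data. Its changes were larger than that of any member, so it does not show how often changes of the members' size are found. Ratios of TPM were compared by exact permutation. Levels per kilobase, added after seeing the data, used the longest coding transcript. Figures were drawn with matplotlib 3.10.9, and tables handled with Python 3.11.15, pandas 2.3.3 and SciPy 1.17.1.

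The members and gene lists were chosen with earlier results of these data known. Named were all members, in each role of the list the genes called and the 2 with the highest mean CPM, the genes of the 7 ratios, and the 5 genes most like the member with the largest change. Alternatives were DESeq2 1.42.0, RLE and upper-quartile factors, other low-count filters, limma 3.58.1 on log2(TPM + 1) or log2(TPM + 0.1) (mean TPM from 1 up, or unfiltered), a replicate block, a GC offset by loess (span 0.5), HSPA1A and HSPA1B summed, a fold threshold of 1 and each library left out. The GC offset with DMSO replicate 3 left out was added after seeing the data. Deviations of same-numbered libraries from their group means correlated at 0.00138, 0.0253 and -0.0329, so the numbers were not taken to pair the libraries. The values of 1 marker gene are not reported here.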

Additional observations from a re-analysis of the deposited data

How the results depend on the processing

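HSPA1A was higher at an adjusted p under 0.05 in 19 of 19 settings and HSPA1B in 18 of 18. In 1 of the 19 the counts of HSPA1B were added to those of HSPA1A, so that value belongs to the pair. No setting called a member lower. Against 2 members called higher and 2 with an adjusted p under 0.05, limma on log2(TPM + 1) or log2(TPM + 0.1) gave 4 and 8, and 4 and 5 without a filter, where 9.41%, 10.3% and 5.86% of all genes were called higher and 19.7%, 19.2% and 12.5% had an adjusted p under 0.05; these fits shift the median of all genes by 0.18, 0.20 and 0.12 on the log2 scale, against 0.00 in edgeR. They called 14, 14 and 12 of the listed partner genes higher, against 5. HSPA1A and HSPA1B summed gave 1 and 1 by construction, and a fold threshold of 1 called 0 members higher in edgeR, where 2 had an adjusted p under 0.05 and 4 an unadjusted one. The GC offset without DMSO replicate 3, chosen after seeing the data, gave 5 and 7, against 6.91% of all genes called higher and 49.4% with an adjusted p under 0.05. Leaving out each library in turn gave 2 to 4 members called higher and 2 to 9 with an adjusted p under 0.05. Partner genes called higher numbered 3 to 11. Over these fits 1.33% to 11.4% of all genes were called higher, and 2.4% to 55.2% had an adjusted p under 0.05. The upper end is without DMSO replicate 3 in each case. There the coefficient of variation estimated by edgeR was 0.0421, against 0.139 with all libraries. The log2 fold change of HSPA8 turned from -0.058 to 0.15 in all 3 limma fits on TPM, and ran from -0.12 to 0.060 with a library left out, the latter without DMSO replicate 3. With a replicate block, 2 members remained called and 3 partner genes were called higher, where 3% of all genes were called higher. HSPH1 had an edgeR adjusted p of 0.0531 in that fit, and the replicate numbers mark no stated pairing. HSPH1 passed 0.05 in 10 of 19 settings, DESeq2 (0.00803) and the GC offset (0.0143) among them. Depth gave every member at least 1180 reads in each library. The cause of these changes was not tested.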
